A study of Mus musculus with 2 samples.

Results

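Long intergenic non-coding RNA (lincRNA) genes were examined in the hearts of newborn mice. Genes were selected on annotation and on level: every transcript had to carry the type lincRNA, and TPM (a level scaled for transcript length and library size) had to reach 1 in replicate 1 and in replicate 2. Well-known lincRNA genes (Malat1, Neat1, Tug1, Miat, Fendrr, Hand2os1, Dnm3os, H19, Meg3, Rian, Mirg, Kcnq1ot1, Gas5, Zfas1 and every Snhg gene) were left out by name. This gave 155 genes, out of 165 lincRNA genes past the threshold, 5844 lincRNA genes in all, 13243 expressed genes of any type and 55536 genes in the tables. Levels chose these genes, so the levels below are a description and nothing is tested on them.

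Heart tissue came from B6CASTF1/J males aged 4 days, the F1 offspring of C57BL/6J and CAST/EiJ mice, with no treatment named in the labels. There were 2 libraries of total RNA, each from 300 ng with rRNA reduced, strand kept and ERCC spike-ins added, and both formed a single group. The labels give the replicates different animal numbers but the same donor record, so their spread may be technical in part. With 1 group of 2 libraries no test across samples was run, and the question answered is which lincRNA genes this tissue expressed and how alike the 2 libraries were.

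LincRNAs are transcribed by RNA polymerase II, mostly capped, spliced and polyadenylated like messengers, but lack a long conserved reading frame. Some act in trans by binding proteins or microRNAs, some mark or regulate the locus they are transcribed from, and others serve as precursors that release microRNAs or small nucleolar RNAs. In the heart, lincRNAs named in the literature include Bvht and Carmn, both tied to the commitment of mesoderm to the cardiovascular lineage.

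Each library held between 31512596 and 35744013 expected counts on mouse genes. Cardiac muscle genes were high in both libraries, with Myh6 at 8663 and 7208 TPM, Actc1 at 6963 and 7924 TPM and Tnnt2 at 3669 and 3035 TPM in replicates 1 and 2. The hepatocyte gene Alb was at 2.00 and 1.69 TPM, and the lymphocyte gene Rag1 at 0.03 and 0.17 TPM. The libraries differed in markers of other cells, given here as lists chosen with results known. By TPM, 5 of 7 red blood cell markers were higher in replicate 2, with summed levels of 1409 and 5293 TPM, as were all 7 fibroblast and matrix markers (1612 and 2320 TPM) and 4 of 6 smooth muscle markers (502 and 785 TPM), while 6 of 7 atrial muscle markers were lower (2884 and 1707 TPM). The brown fat gene Ucp1 had 0 counts in replicate 1 and 396 in replicate 2, with 6 of 8 brown fat markers higher in replicate 2 by TPM. Their summed levels of 919 and 856 TPM were mostly those of the 2 lower ones, Cox8b (551 and 485 TPM) and Fabp4 (340 and 329 TPM). The sums therefore do not follow Ucp1, Plin1 (0 and 2.12 TPM) or Adipoq (0.09 and 2.06 TPM). The part of these cells in the differences between libraries below was not tested. Coordinates are those of mm10 with the GENCODE M21 annotation.

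Sequences are shown where a known partner or product of a member can be read from them. The first is the site for the microRNA miR-7 in 1700020I14Rik (Oip5os1 in RefSeq, also called Cyrano), a conserved lincRNA known to drive the destruction of that microRNA. The capitals mark the seed (bases 2 to 8) in the microRNA, and in the site the bases complementary to its 3′ part and to its seed region. The microRNA is from RefSeq on GRCm38.p6 and the site is at bases 2935 to 2959 of the leading GENCODE M21 transcript.
mmu-miR-7a-5p: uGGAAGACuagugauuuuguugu
1700020I14Rik site: ACAACAAAATCACcaatGTCTTCCA
The site pairs with 13 consecutive bases at the 3′ end of the microRNA and with 8 at its 5′ end. Across the transcripts of 55450 genes, the 13-base match was present in 6 genes, and together with the seed match GTCTTCC within 25 bases it was present in 1 gene, 1700020I14Rik. The seed match alone, searched on the transcript strand, was held by the leading transcript of 22 of the 155 members (14.2%), of 10.97% of lincRNA genes under the threshold and of 24.2% of expressed protein-coding genes, and 1700020I14Rik held it at 2 places.

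The next set are motifs of the Pumilio proteins, RNA-binding proteins that repress their target messengers. The motif TGTANATA, searched on the transcript strand of each gene's leading transcript, occurred 11 times in the 4915 nt of 2900097C17Rik (RefSeq Norad), a lincRNA known to bind Pumilio proteins and to preserve genome stability. It occurred 9 times in the 2527 nt of Gm7292, a single-exon gene on chromosome 6 that shares 85.9% of its 31-base words with 2900097C17Rik. The first 3 windows of each are shown with the motif in capitals.
2900097C17Rik bases 651 to 658: gtcctgTGTATATAatatga
2900097C17Rik bases 1147 to 1154: acatgcTGTAAATAcctttt
2900097C17Rik bases 1336 to 1343: tttcttTGTACATAgtgtat
Gm7292 bases 633 to 640: gtcctgTGTATATAatatga
Gm7292 bases 1124 to 1131: acatgcTGTAAATAcctttt
Gm7292 bases 1313 to 1320: tttcttTGTACATAgtgtat
All 9 windows of Gm7292 were found letter for letter in 2900097C17Rik. At least 1 motif was found in 32 of the 155 members (20.6%), in 13.1% of lincRNA genes under the threshold and in 26.0% of expressed protein-coding genes. These shares are per transcript and not corrected for length. Per kb there were 0.210 motifs in the members and 0.118 in each of the other 2 sets. The rate of the members includes the 11 motifs of 2900097C17Rik and the 9 of Gm7292, whose windows are the same sequence. It was not taken without these 2 genes, so it says nothing about the rest of the members. Only these 2 members held more than 5, and 4632404H12Rik, D130017N08Rik and 4833403J16Rik came next with 2 each.

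**Figure D1:**
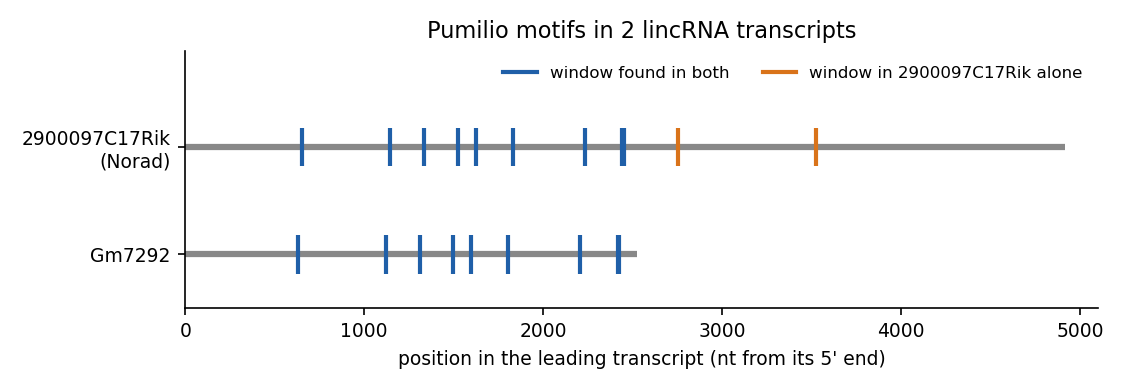
Positions of the Pumilio motif along the leading transcripts of 2900097C17Rik (Norad, 4915 nt) and Gm7292 (2527 nt), in nt from the 5′ end. Each tick is a motif, blue where the motif and its 6 flanking bases on each side occur in both transcripts (9) and orange where they occur in 2900097C17Rik alone (2).

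Members that enclose microRNA genes on the same strand are shown through the mature sequences of those microRNAs. There were 8 such members with 17 microRNA genes, and RefSeq mature sequences were found for 16 of these, with Mir30d left without. Capitals mark the seed, and microRNAs that share a seed stand together.
let-7a-5p (6720427I07Rik): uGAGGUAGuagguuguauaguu
let-7d-5p (6720427I07Rik): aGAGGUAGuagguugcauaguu
let-7f-5p (6720427I07Rik): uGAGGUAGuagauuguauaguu
miR-17-5p (Mir17hg): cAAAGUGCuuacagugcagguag
miR-20a-5p (Mir17hg): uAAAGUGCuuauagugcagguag
miR-18a-5p (Mir17hg): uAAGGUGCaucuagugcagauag
miR-19a-3p (Mir17hg): uGUGCAAAucuaugcaaaacuga
miR-19b-3p (Mir17hg): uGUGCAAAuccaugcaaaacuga
miR-92a-3p (Mir17hg): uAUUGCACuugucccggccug
miR-30c-5p (Gm27028): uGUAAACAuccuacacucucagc
miR-191-5p (4833445I07Rik): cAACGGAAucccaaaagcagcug
miR-425-5p (4833445I07Rik): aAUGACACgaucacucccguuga
6720427I07Rik, which encloses let-7 genes, lies on chromosome 13 (48532905 to 48546500) and had 5.91 and 3.96 TPM in replicates 1 and 2. Mir17hg, the precursor of the growth-promoting miR-17-92 cluster (chromosome 14, 115042879 to 115046727), had 1.58 and 1.15 TPM. Gm27028 around Mir30c-2 had 4.80 and 3.35 TPM. Among the others, 4833445I07Rik around Mir191 and Mir425 had 1.22 and 1.12 TPM, Gm20732 around Mir30d had 1.77 and 1.04 TPM, and 2900076A07Rik around Mir1839 had 5.75 and 4.26 TPM. Ftx around Mir421 and Mir374b had 1.89 and 1.34 TPM, and Gm27000 around Mir1906-2 had 7.13 and 3.56 TPM. Gm27000 shares 96.2% of its 31-base words with Meg3, and Gm20732 shares 39.0% with other genes, so their levels are uncertain. In a second quantification of the same libraries Gm27000 had 21.1 and 7.26 TPM and Gm20732 had 4.75 and 4.76 TPM. Of the 8, 4833445I07Rik had the values nearest each other, and all 8 were lower in replicate 2 by deposited TPM, a scale on which 111 of 151 members were lower. The share of all expressed genes lower on that scale was not taken. After TMM scaling of the counts 4833445I07Rik was at a log2 ratio of 0.05 and the other 7 were lower. Every one of the 17 microRNA genes itself was listed at 0 TPM in both libraries, so these values describe the enclosing genes and not the mature microRNAs. The members were matched to microRNA genes by position and strand only. A further 3 members, Epb41l4aos, 9430037G07Rik and 2700038G22Rik, enclose small nucleolar RNA genes, of which only Gm23639 inside Epb41l4aos was listed above 0, at 4.99 and 9.47 TPM.

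The levels of the 155 members were very unequal, and 3 of them held nearly all of the TPM. Gm26917, a 2-exon gene on chromosome 17 (39843013 to 39846341), stood at 14622 and 13839 TPM in replicates 1 and 2. Gm42418, a single-exon gene 3′ of it (39846958 to 39848788), had 2793 and 2632 TPM. RefSeq lists it as Rn18s-rs5, a pseudogene of 18S ribosomal RNA, and it lies within a gene typed rRNA on the opposite strand, CT010467.1, which had 4.80 and 4.12 TPM. Gm42418 had 117492 and 131365 expected counts, against 72.9 and 73.0 for CT010467.1. How far reads from ribosomal RNA contribute to Gm26917 and Gm42418 was not tested.

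Rmrp was the other member of these 3. It is the RNA component of RNase MRP, an enzyme that cuts ribosomal RNA precursors, and RefSeq types it so. The annotation holds it as 2 records at the same place, a ribozyme of 271 nt and a lincRNA of 281 nt (chr4:43492783-43493063, minus strand). The lincRNA record is the ribozyme with 5 more bases at each end, in capitals here.
Rmrp lincRNA record: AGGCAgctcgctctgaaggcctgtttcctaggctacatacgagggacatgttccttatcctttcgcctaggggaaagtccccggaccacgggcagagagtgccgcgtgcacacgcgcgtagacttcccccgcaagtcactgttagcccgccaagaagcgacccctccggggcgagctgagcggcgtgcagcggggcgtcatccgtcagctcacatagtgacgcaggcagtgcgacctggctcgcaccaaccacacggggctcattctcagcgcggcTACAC
The lincRNA record had 3070 and 3056 TPM and the ribozyme record 1983 and 1976 TPM. They share 96.0% of the 31-base words of the lincRNA record, so the split between them is uncertain. In the second quantification of the same libraries the lincRNA record had 0.74 TPM in replicate 1 and was listed at 0 in replicate 2, and the ribozyme record was listed at 0 in both.

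The 155 members took 2.16% of mouse-gene TPM in replicate 1 and 2.06% in replicate 2, a mean of 2.11% ± 0.0770 (SD, n = 2). Gm26917, Rmrp and Gm42418 made up 95.6% and 95.8% of that. The remaining members took 0.0957% and 0.0856% of mouse-gene TPM. Gm42418 lay 29.8-fold above the next member, 1700020I14Rik, in mean TPM.

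Below this step stood 3 conserved transcripts within the range of 76.9 to 93.9 TPM. 1700020I14Rik (Cyrano, chromosome 2, 119594297 to 119607502) had 88.4 and 93.9 TPM, or 91.1 ± 3.86 (SD, n = 2). 2900097C17Rik (Norad, chromosome 2, 156388065 to 156392979) had 76.9 and 86.2 TPM, or 81.5 ± 6.58. 1810058I24Rik (chromosome 6, 35252654 to 35263496) had 80.1 and 78.2 TPM, or 79.1 ± 1.36, and RefSeq types it protein-coding, since it is known to encode a small mitochondrial protein. The ranges of 2900097C17Rik and 1810058I24Rik overlapped, and the lowest value of 1700020I14Rik lay above both values of 1810058I24Rik. In the second quantification that order was reversed, with 121 and 118 TPM for 1810058I24Rik and 104 and 107 TPM for 1700020I14Rik.

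A further 10 members had a mean of 10 to 70 TPM. AC132253.9 had 40.2 and 24.9 TPM and 5430431A17Rik 33.1 and 18.6 TPM, both lower in replicate 2. AC132253.9 shares 83.3% of its 31-base words with other genes, so its level is uncertain. Tmem250-ps had 23.8 and 21.3 TPM, and Gm10076, a pseudogene in RefSeq, had 22.7 and 20.9 TPM. AI480526 had 27.1 and 14.8 TPM, and Lsmem2, which RefSeq lists as a protein-coding gene for a single-pass membrane protein, had 16.5 and 9 TPM. The level of Lsmem2 is that of its lincRNA record, whose leading transcript of 369 nt held no reading frame from ATG to stop. Gm44386 with 10.7 and 14.6 TPM and Carmn with 10.3 and 14.8 TPM stood on the other side, higher in replicate 2. 5031425E22Rik had 13.2 and 10.6 TPM, and AU020206 had 11.9 and 10.7 TPM. Of the 155 members, 49 had a mean under 2 TPM, and the median was 3.07 TPM, against 12.3 for the 11867 protein-coding genes past the same threshold.

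**Figure D2:**
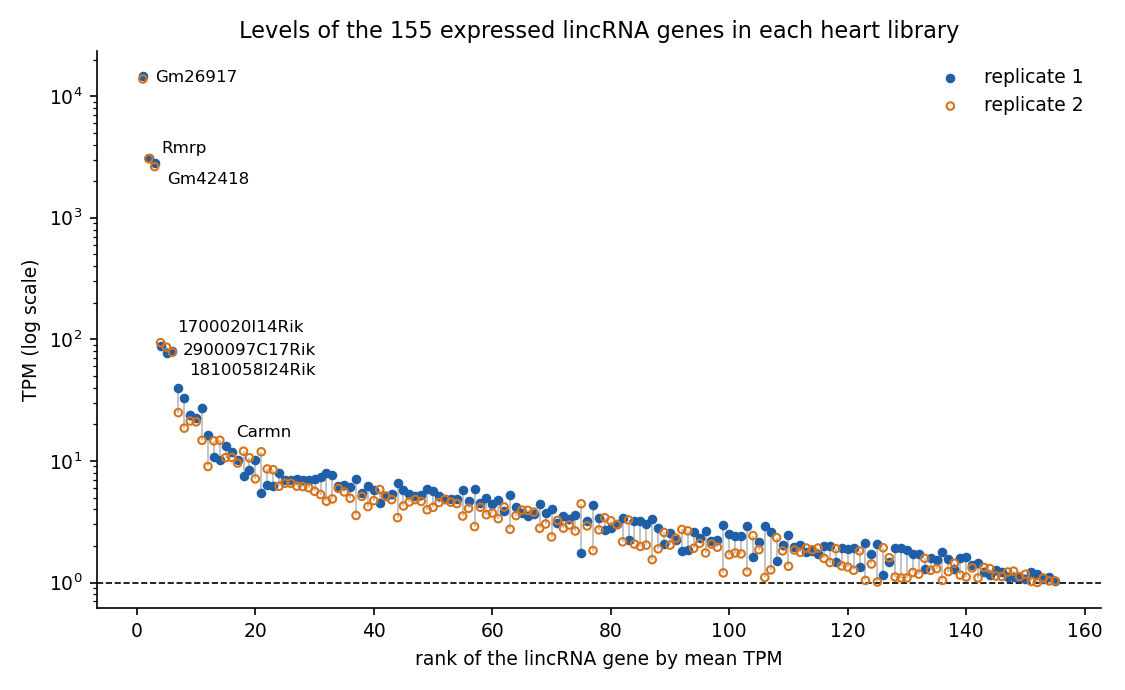
TPM (log scale) of the 155 lincRNA genes in replicate 1 (filled) and replicate 2 (open), ordered by mean TPM, with the threshold of 1 TPM dashed. Gm26917, Rmrp and Gm42418 stand apart at 2632 TPM and over, 3 genes lie between 76.9 and 93.9 TPM, and the next, AC132253.9, had 40.2 and 24.9 TPM.

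Members at the threshold differed in depth. Just inside stood Gm17281 (1.18 and 1.00 TPM), A430046D13Rik (2.08 and 1.01 TPM) and Gm29362 (1.21 and 1.02 TPM). Just outside stood 4930555A03Rik (1.38 and 0.96 TPM), Gm39090 (1.13 and 0.95 TPM) and A730020M07Rik (0.93 and 0.94 TPM). Gm17281 had 100 and 101 expected counts and A430046D13Rik 96 and 55, while Gm29362, 133 nt long, rested on 1 in each library. For 35 members the deposited lower bound of TPM fell under 1 in at least 1 library, and 32 further lincRNA genes reached 1 TPM in replicate 1 alone and 13 in replicate 2 alone. The median member had 86.0 expected counts in replicate 1 and 90.1 in replicate 2.

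Of the lncRNAs named in heart work, 3 of 15 listed were members, 6 had other transcript types, 3 were under the threshold and 3 symbols were not found. Carmn (chromosome 18, 61649625 to 61665537), a transcript of cardiac and smooth muscle lineages, had 322 and 531 expected counts. Bvht (chromosome 18, 61639542 to 61647472), its neighbour on the opposite strand, had 2.02 and 1.77 TPM from 24 and 25 counts. Gm14005 (RefSeq Morrbid, chromosome 2, 128178319 to 128502765), known as a regulator of the lifespan of myeloid cells, had 5.88 and 2.88 TPM from 70.8 and 38 expected counts. Mhrt, the antisense transcript of the myosin heavy chain locus, was not of lincRNA type throughout and had 56.5 and 41.5 TPM. Trp53cor1 was under the threshold at 0.12 and 0.17 TPM, and Hotair and Hottip were listed at 0.

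Of a list headed conserved regulatory lncRNAs, 13 of 40 listed were members, with Rmrp, Gm26917 and Gm42418 counted. That heading does not describe these 3. RefSeq types Rmrp as RNase MRP RNA and Gm42418 as a pseudogene, and holds no match for Gm26917. A further 7 were lincRNA genes under the threshold and 2 symbols were not found. Other transcript types were held by 19, with the ribozyme record of Rmrp among them. The X-inactivation centre was represented by Jpx (4.44 and 3.73 TPM) and Ftx (1.89 and 1.34 TPM), known as activators of Xist and transcribed from overlapping stretches of opposite strands, while Xist itself was at 0.01 TPM in both of these male hearts. Pvt1, the neighbour of the Myc gene, had 2.00 and 1.46 TPM. Lncpint, a target of p53, had 4.31 and 1.83 TPM from 86 and 53 expected counts. Lockd, transcribed 3′ of the cell cycle inhibitor Cdkn1b, had 7.46 and 12.02 TPM, and its values lay on the other side, higher in replicate 2. Dubr had 6.25 and 4.21 TPM and Epb41l4aos 5.36 and 4.80 TPM. Of the 22 miRNA host lncRNAs listed, 2 were members (Mir17hg and Ftx). Of the rest, 7 had other transcript types, 8 symbols were not found, 4 were under the threshold and 1 was left out by name. Of 11 genes for small proteins once typed non-coding, 1 was a member (1810058I24Rik), 8 had other transcript types and 2 were not found. Other transcript types do not mean absence, as Mir99ahg had 20.3 and 11.7 TPM, while Mir34a was listed at 0.

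RefSeq held 98 of the 155 members, 90 by symbol and 8 by synonym. It types 82 as lncRNA, 12 as protein-coding, 3 as pseudogenes and 1 as RNase MRP RNA. Members it calls lncRNA had a median of 2.77 TPM, the 57 without a match 2.59 TPM and the 12 protein-coding ones 4.99 TPM. Besides 1810058I24Rik and Lsmem2, the protein-coding ones included Zfp469 (2.43 and 1.72 TPM) and D930016D06Rik, named Thoc2l (3.63 and 3.79 TPM). A reading frame of over 100 codons from ATG to stop was found in 35 members (22.6%), in 13.5% of lincRNA genes under the threshold and in 92.1% of expressed protein-coding genes. The longest were those of Gm5165 with 667 codons and AC132253.9 with 587. Single-exon genes were 31 of the 155 (20%), against 5.04% of lincRNA genes under the threshold and 2.31% of expressed protein-coding genes.

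Several members start beside a protein-coding gene. For 30 of 155 (19.4%) the start lay within 5 kb of the start of a protein-coding gene on the other strand, with both transcribed away from each other, and in 24 of these within 1 kb. The same held for 371 of 5678 lincRNA genes under the threshold (6.53%). All 30 partner genes reached 1 TPM in both libraries, against 67.4% of the partners of lincRNA genes under the threshold and 53.9% of all 22028 protein-coding genes. Another 6 members overlapped such a gene head to head, Lppos with Lpp and Mkln1os with Mkln1 among them.

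Gm12319 (chromosome 11, 70654741 to 70656493) starts 709 bases from Eno3, the muscle enolase of glycolysis. It had 6.22 and 8.47 TPM, while Eno3 had 755 and 584 TPM. Gm32391 starts 4087 bases from Atp1b1, a subunit of the sodium pump. It had 1.59 and 1.26 TPM, while Atp1b1 had 185 and 178 TPM. C030037D09Rik starts 132 bases from the RNA-binding protein gene Msi2 and had 5.12 and 4.81 TPM, while Msi2 had 92.8 and 98.2 TPM. Fam120aos starts 270 bases from Fam120a and had 2.06 and 2.58 TPM, against 55.9 and 47.1 TPM. Gm34934 starts 97 bases from Samd4, which encodes an RNA-binding repressor, and had 3.00 and 2.99 TPM, against 29.0 and 35.4 TPM. The partner was the higher gene in 29 of the 30 pairs, with a median fold of 4.97 in mean TPM, and the exception was AI480526, which stood above the histone methyltransferase gene Setd1b (13.2 and 9.67 TPM). A430046D13Rik and Myl6b were close, with 2.08 and 1.01 TPM against 1.63 and 1.55 TPM, so the lincRNA gene was the higher in replicate 1. In 16 of 30 pairs both genes had the same sign of difference between the libraries.

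**Figure D3:**
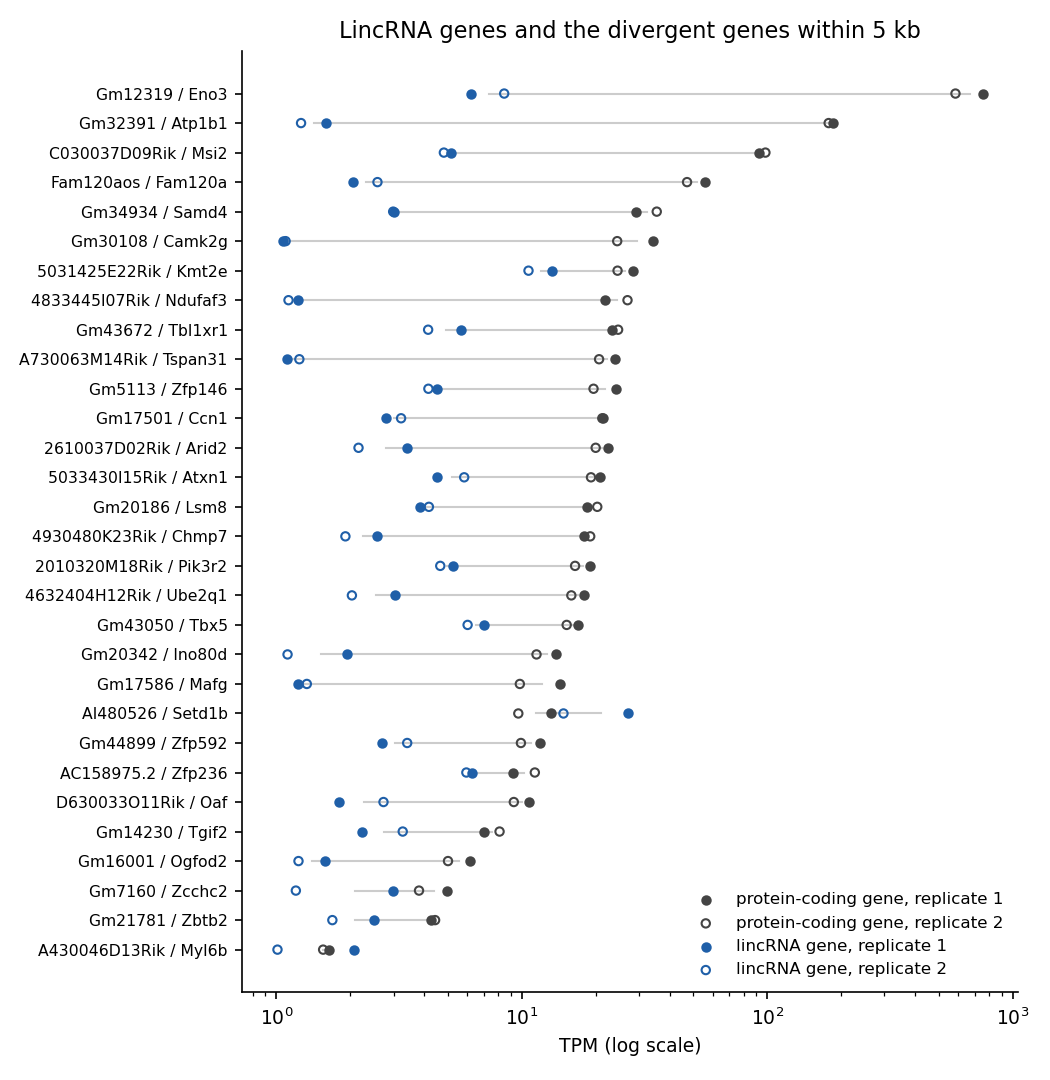
TPM (log scale) of the 30 lincRNA genes (blue) and of the protein-coding gene that starts within 5 kb in the other direction (dark), in replicate 1 (filled) and replicate 2 (open), ordered by the mean TPM of the protein-coding gene. The grey line joins the means, and by mean the lincRNA gene is the lower of the pair except in AI480526 / Setd1b.

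The stretch between C030037D09Rik and Msi2 shows such a start region. These are the 300 bases of the RefSeq promoter window of C030037D09Rik (GRCm38.p6, chr11:88718393-88718692, plus strand), and capitals mark the 133 bases from the annotated start of Msi2 to that of C030037D09Rik.
C030037D09Rik promoter: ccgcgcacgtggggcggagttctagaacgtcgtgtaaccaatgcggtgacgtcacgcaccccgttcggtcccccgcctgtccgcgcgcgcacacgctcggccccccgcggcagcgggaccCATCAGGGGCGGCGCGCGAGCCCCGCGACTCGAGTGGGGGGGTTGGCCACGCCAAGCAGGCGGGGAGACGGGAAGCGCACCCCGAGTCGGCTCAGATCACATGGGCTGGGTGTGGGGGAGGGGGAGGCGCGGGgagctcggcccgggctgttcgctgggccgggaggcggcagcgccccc
The window holds 42 CG dinucleotides. RefSeq promoter windows were found for 76 members, with a median of 13 CG, against 7 over 27025 genes of the table, expressed or not. Among the 15 of these members with a divergent partner within 5 kb and no overlap the median was 32 CG, and among the other 61 it was 10. Members that overlap a gene head to head were not set apart from these others. The letters TATAAA, on either strand, were in 1 of those 15 windows, in 14 of the 61 (22.95%) and in 14.2% of all windows. The letters GGGCGG, on either strand, were in 9 of the 15 (60.0%), in 24 of the 61 (39.3%) and in 35.9% of all windows. These are matches of letters, and binding was not measured.

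A smaller number of members start past the end of a protein-coding gene on the same strand. Within 5 kb there were 20 of 155 (12.9%), against 167 of 5678 lincRNA genes under the threshold (2.94%). All 20 genes upstream were at 1 TPM or more in both libraries, against 60.5% for lincRNA genes under the threshold. Gm42743 starts 580 bases past the histone gene Hist2h3b and had 4.98 and 3.61 TPM, while Hist2h3b had 370 and 359 TPM. A730063M14Rik starts 2455 bases past the cell cycle kinase gene Cdk4 (115 and 121 TPM) and had 1.10 and 1.24 TPM. That level rests on 12 and 11 expected counts, and in the second quantification it was 0.64 and 0.39 TPM, under the threshold. Gm45495, past Smim20 (40.4 and 43.0 TPM), had 2.34 and 2.10 TPM, and 4833445I07Rik starts 1949 bases past Impdh2, the rate-limiting enzyme of guanine nucleotide synthesis (34.8 and 33.4 TPM). 5430431A17Rik, with 33.1 and 18.6 TPM, is nearer in level to the gene it follows, Josd2, at 34.1 and 30.2 TPM. Whether reads past the end of the upstream gene add to such values was not tested.

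Of 32 genes of cardiac transcription factors and cofactors, a list written after the pairs were seen, 3 had a member within 50 kb. The share of all protein-coding genes with a member so near was not taken, so this count says nothing about cardiac factors as a group. Gm43050 (chromosome 5, 119828448 to 119831920) starts 748 bases from Tbx5, a T-box factor of the heart, and had 7.02 and 6.01 TPM, while Tbx5 had 16.97 and 15.2 TPM. 5033428I22Rik (RefSeq Hdnr) lies 7485 bases past Hand2, a basic helix-loop-helix factor of the right ventricle, and had 7.39 and 5.29 TPM. Gm34030, on the opposite strand at the same place, had 10.2 and 9.59 TPM, while Hand2 had 33.3 and 29.2 TPM. Gm12295 lies 7665 bases upstream of Myocd, a cofactor of serum response factor in muscle, and had 3.54 and 3.92 TPM, while Myocd had 58.0 and 55.0 TPM. In each of these cases the factor was the higher gene in both libraries. Protein-coding genes past the threshold were higher in general, with a median of 12.3 TPM against 3.07 for the members.

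Most members lay within 2-fold between the 2 libraries. Differences are log2 ratios of replicate 2 over replicate 1 after TMM scaling of the expected counts, and 151 of the 155 members passed the filter on low counts. In such bulk tissue a smaller number of cells of a type and less RNA per cell cannot be told apart. The median ratio was -0.08, with 91 members lower and 60 higher in replicate 2. Lower in replicate 2 were 47.1% of all 13120 expressed genes that passed the filter, 46.6% of the protein-coding ones, and 50.4% of all 16271 genes kept by the filter. Scaled by the spike-ins, 82 members were lower and 69 higher, and by the ratio of deposited TPM 111 were lower and 38 higher. All genes kept by the filter had a median of 0.041 with the spike-ins, against -0.003 by TMM. The shares of all genes given here are by TMM and were not taken on the other 2 scales. Members with 2 or more exons had a median of -0.11, with 77 of 121 lower, and single-exon members a median of 0.01, with 14 of 30 lower. Expressed genes of the type processed transcript had a median of -0.15 and those of the type antisense -0.07. Those of the type TEC, a class still awaiting experimental evidence, had -0.42, those of the type sense intronic -0.29 and those of the type snoRNA 0.14, and the difference between these classes was not tested.

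Past 2-fold in either direction were 3 of 151 members, 2 higher and 1 lower in replicate 2. The share was 1.19% of expressed genes (0.572% higher and 0.617% lower), 0.792% of expressed protein-coding genes and 3.06% of all genes kept by the filter. AC158549.1 had 1.74 and 4.44 TPM, or 28 and 79 counts, with a log2 ratio of 1.32. Gm49207 had 5.41 and 11.9 TPM and a log2 ratio of 1.19, and it shares 83.1% of its 31-base words with the chaperone activator gene Ahsa1. Gm49539 had 2.90 and 1.10 TPM, or 29 and 13 counts, with a log2 ratio of -1.15. None of the 71 members with a mean of at least 100 counts was past 2-fold. Such differences were rare among protein-coding genes of that depth as well. They were held by 1.27% of the 2208 with 100 to 300 counts and by 0.554% of the 9031 with 300 and over. An exact binomial interval of the ratio at the 95% level, which covers counting error only, excluded 0 for 58 of 151 members (38.4%), and for 50.1% of all expressed genes.

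Among members with a mean of 100 counts or more, Carmn was furthest to the side of replicate 2. Its log2 ratio was 0.60 (interval 0.40 to 0.81). Smooth muscle markers had a median log2 ratio of 0.50, with Cnn1 at -0.11 and Smtn at 0.00. The median was 0.57 for the fibroblast and matrix markers and 0.69 for the brown fat markers. It was higher still for the red blood cell markers and negative for the atrial muscle markers. Whether any of these cells had a part in the ratio of Carmn was not tested. After Carmn came Gm44386 at 0.57, then 9330158H04Rik at 0.46, Gm7292 at 0.46 and Fam120aos at 0.45. On the side of replicate 1, Gm26601 had 217 and 126 counts and a log2 ratio of -0.89 (interval -1.23 to -0.58). Gm27000 had -0.86, AI480526 -0.77, Gm43597 -0.75 and 5430431A17Rik -0.71. Gm27000 on chromosome X shares 96.2% of its 31-base words with the imprinted gene Meg3, which had 154 and 44.4 TPM and a log2 ratio of -1.27, and the share of Meg3 reads in the counts of Gm27000 was not tested. The abundant conserved members were close to equal, with log2 ratios of 0.16 for 1700020I14Rik, 0.17 for 2900097C17Rik and 0.09 for 1810058I24Rik. Gm7292, which shares its sequence with 2900097C17Rik, had 335 and 498 counts.

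**Figure D4:**
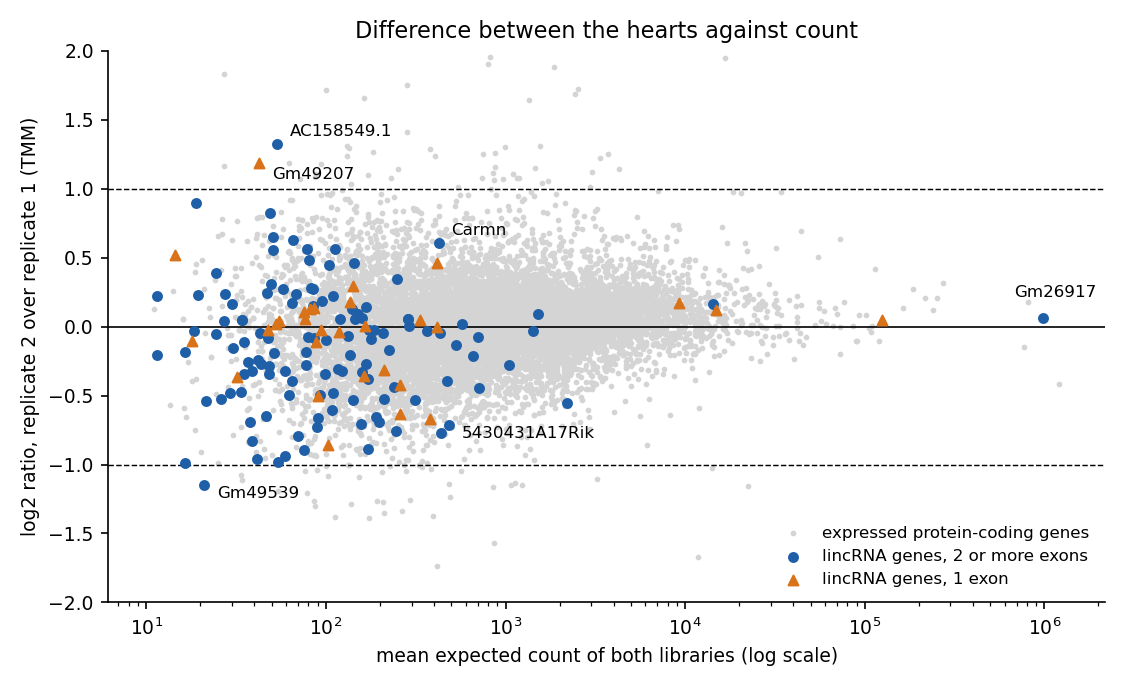
Log2 ratio of replicate 2 over replicate 1 (TMM scaling) against the mean expected count (log scale) for the 151 filtered lincRNA genes with 2 or more exons (circles) or 1 exon (triangles), over expressed protein-coding genes in grey, of which 3 lie outside the axis. Dashed lines mark 2-fold, and the 3 members beyond them had a mean of under 100 counts.

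The spread between libraries can be set beside that of protein-coding genes of like depth. With a mean of 300 counts and over, the median size of the log2 ratio was 0.16 for 25 members and 0.14 for 9031 protein-coding genes. With 100 to 300 counts it was 0.30 for 46 members and 0.23 for 2208 protein-coding genes. With 30 to 100 counts it was 0.28 for 63 members and 0.25 for 584 protein-coding genes. Under 30 counts the order was the other way, with 0.24 for 17 members and 0.34 for 39 protein-coding genes, and the differences were not tested.

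Many members have several annotated transcripts. Of the 87 with 2 or more, 1 transcript led with a median share of 66.2% of the gene's TPM in replicate 1 and 67.6% in replicate 2. It was the same transcript in both libraries for 67 genes, and in the second quantification as well for 46. 2900097C17Rik had 92.7% and 84.8% on 1 transcript, 1810058I24Rik 88.8% and 89.1%, and 1700020I14Rik 68.8% and 65.6%. Carmn had its 2 transcripts near equal, with Carmn-201 leading in replicate 1 at 51.1% and Carmn-202 in replicate 2 at 54.9%. Lncpint, with 16 transcripts, gave no more than 25.3% to any transcript, and the leading one differed between the libraries.

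The deposited tables quantify the same libraries in a second way, which shows the members whose levels depend on the method. Over all expressed genes the second TPM had a median of 1.34-fold the first, and over the members 1.41-fold. In both libraries, 21 members were over 2-fold higher and 9 over 2-fold lower in the second, 30 in all, or 19.4%. Of 13238 expressed genes 7.58% passed this mark, 3.51% higher and 4.07% lower, and of the protein-coding ones 3.69%. After centring on the median of all expressed genes 18 were left, and the share of all expressed genes was not taken on that scale. Of the 20 members that share over 50% of their 31-base words with other genes, 8 were higher and 6 lower, and of the 72 that share none, 6 were higher and 1 lower.

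Rmrp, Gm10076, Gm49207, Gm13166 and Gm47101 differed most. Gm10076 shares 82.2% of its words with the ribosomal protein gene Rpl41 (1097 and 1062 TPM) and was listed at 0 in both libraries of the second. Gm49207, Gm13166 (77.4% shared with Zfp991), Gm47101 (86.5% shared with the integrin gene Itga6) and Gm29362 (100% shared with Mir3068) were listed at 0 there as well. All 5 members listed at 0 in both libraries are among those that share over 50%. Short length went with it: of the 5 members with a leading transcript under 300 nt, 4 were over 2-fold lower in the second and 3 of them were listed at 0 (Gm49207, Gm47101 and Gm29362). The parts of length and shared sequence were not tested apart. In the other direction, Gm20186 had 3.86 and 4.18 TPM in the first and 44.4 and 88.0 in the second. Gm42743, which shares 13.3% with the histone gene Hist2h2bb, had 4.98 and 3.61 TPM in the first and 0.12 and 0.07 in the second. The abundant 1700020I14Rik (104 and 107 TPM in the second) and 2900097C17Rik (86.5 and 92.2) stayed within 1.5-fold of the first, as did Gm26917 (17959 and 17787). Past 1.5-fold were 1810058I24Rik, at 1.51-fold the first, and Gm42418, at 1.75-fold with 4816 and 4657 TPM in the second.

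**Figure D5:**
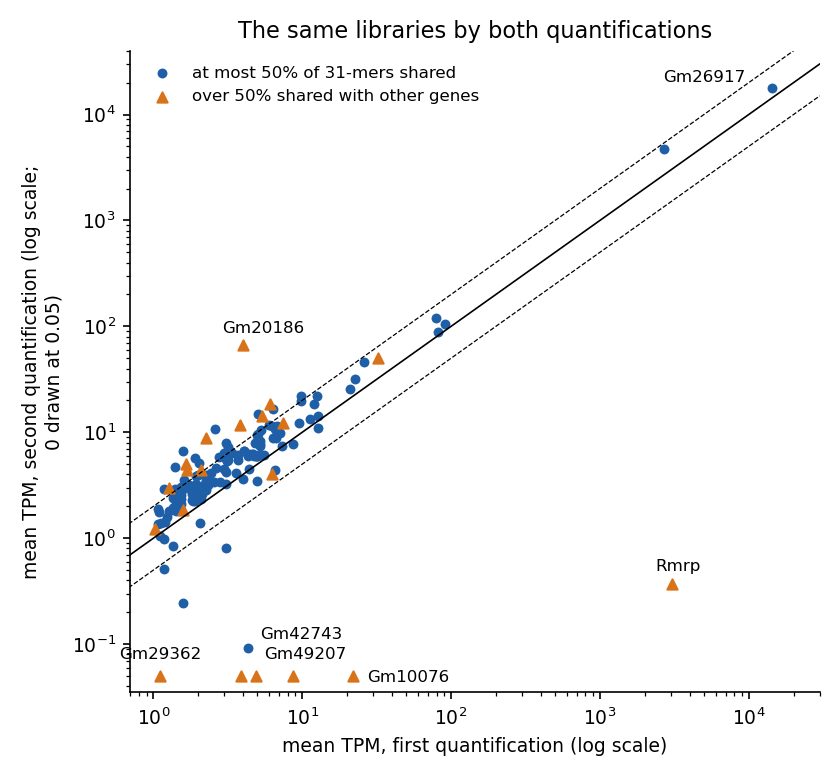
Mean TPM of the 155 lincRNA genes by the second quantification against the first (both log scales, 0 drawn at 0.05), with equality as a solid line and 2-fold dashed. Triangles are the 20 genes that share over 50% of 31-base words with other genes, and Rmrp, Gm10076 and Gm49207 lie far below the line while Gm20186 lies above it.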

How the data were processed

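Strand-specific total RNA of 2 heart libraries was quantified by the authors on mm10 with the GENCODE M21 annotation, per the notes deposited beside the files. For the aligner and the quantification tools, names and versions are not given in the sources used here. Deposited gene tables hold an expected count and a TPM per gene for each library, with bounds of an interval of TPM (a signal whose level is not stated, per the file headers). A second pair of deposited transcript tables holds estimated counts and TPM, which were summed per gene. Reads that match several genes were divided among them by these estimates, so levels of genes with shared sequence are uncertain.

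Expected counts were rounded to whole numbers. The rows that name no mouse gene or spike-in (26249 in each table, holding 6.31e-06% and 1.11e-05% of counts) were left out. Ratios of replicate 2 over replicate 1 were taken from TMM-scaled CPM with a prior count of 2, over genes kept by filterByExpr (edgeR 4.0.16, R 4.3.3), with DESeq2 1.42.0 size factors, spike-in scaling, deposited TPM with a pseudocount of 0.1 and a prior count of 0.5 as alternatives. The steps were tested on simulated data. Exact binomial intervals (SciPy 1.17.1) at the 95% level cover counting error only. Tables and figures were made with Python 3.11.15, pandas 2.3.3, NumPy 2.4.6 and matplotlib 3.10.9. Shared sequence is the percent of 31-base words of a gene's leading transcript found in transcripts of other genes. Transcript sequences are from GENCODE M21, and promoters, microRNAs and gene types from RefSeq on GRCm38.p6. No genome sequence was used.

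The genes and lists were chosen with earlier results of these data known. Named were the 15 highest members, the 5 furthest to each side between replicates among those averaging 100 counts or more, the 5 furthest apart between quantifications with a mean of at least 2 TPM, listed members, and up to 5 pairs of each kind with the highest partner. Genes named for their microRNAs, motifs, shared sequence, RefSeq type, reading frames, the threshold or a nearby cardiac factor, and those past 2-fold, were chosen after their values were seen.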

Additional observations from a re-analysis of the deposited data

How the results depend on the processing

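The number of members was 155, and became 249 at a TPM of at least 0.5, 88 at 2, 35 at 5 and 327 with the second quantification, of which 140 were shared. Using either replicate alone gave 168 to 187. The share of mouse-gene TPM of 2.11% became 2.42% in the second quantification, 3.48% of expected counts, 0.674% without Gm26917 and 0.0907% without the 3 highest members, and was 2.06% to 2.16% by single replicates. The median of 3.07 TPM became 4.37 TPM in the second quantification, and 2.74 to 3.23 by single replicates. Members over 2-fold apart between replicates numbered 3, and became 8 by deposited TPM, 6 with a prior count of 0.5 and 0 with a mean of at least 100 counts. Those lower in replicate 2 went from 1 to 6 by deposited TPM, 2 in the second quantification, 4 with a prior count of 0.5 and 0 with at least 100 counts. Those higher went from 2 to 0 with at least 100 counts, and to 1 without members that share over 50% of their words. The median log2 ratio of -0.08 became -0.19 by deposited TPM. Members over 2-fold apart between quantifications went from 30 to 18 after centring and to 70 at 1.5-fold, and were 36 to 38 by single replicates. The share of all expressed genes was not taken at these settings. Members past the end of a gene on the same strand went from 20 within 5 kb to 12 within 2 kb and 5 within 1 kb. The leading transcript share of 67.0% became 69.9% in the second quantification and 66.2% to 67.6% by single replicates. The cause of these shifts was not tested. Leaving out the 3 highest members, or members with shared sequence, was chosen after seeing the data.

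Of the 50 named members compared, 8 had a second TPM within 1 SD of the first, 39 were higher and 11 lower in the second. Over all expressed genes the second TPM had a median of 1.34-fold the first. Depth limits the lowest members, as 28 had fewer than 30 counts in a library. No paired analysis was possible because there is only 1 group.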
